A study of Homo sapiens with 21 samples.

Results

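Genes that were read in a single clone of the breast cancer line SUM149PT and almost nowhere else in the same set of lines are described here. The set holds the 37 genes, of 19922 protein-coding genes with a row in the tables, that had at least 30 counts in each of the 3 libraries of clone M2 and at most 3 counts summed over the 3 libraries of each of the 6 other lines. A count is the number of reads that the authors' software assigned to a gene, rounded to a whole number. The limits were met by 46 protein-coding genes, and 9 of them were left out by symbol: CCND2 and the genes of the MAGE, XAGE, PCDH and ZNF series. The genes were chosen by these counts in M2 and in the other lines, so the counts are described here and not tested.

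SUM149PT is an inflammatory breast cancer line without estrogen or progesterone receptor. Poly(A) RNA was sequenced from the uncloned line (Parental) and from 6 clones of it, with 3 libraries each and 21 in all. The clones are M1, M2, E, EM1, EM2 and EM3. No line was treated, and every line other than Parental is 1 clone, so a value for M2 describes that clone alone. The title places the study in the epithelial to mesenchymal transition, and the labels do not spell out the clone names.

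In that transition epithelial cells give up the cadherin and keratin programme that holds a sheet together and take up mesenchymal genes such as vimentin. Genes that belong to other tissues are normally kept silent in breast epithelium by closed chromatin and, at many CpG-rich promoters, by DNA methylation. Clones grown from one tumour line can differ in which of these genes are silent.

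M2 differed from the other lines at many genes. In edgeR's quasi-likelihood test with Benjamini-Hochberg adjustment, 10035 of 18633 genes tested were called between M2 and the mean of the other 6 lines at an adjusted p under 0.05, which is 53.9% of them (26.6% higher and 27.2% lower in M2). Against M1 alone 41.2% were called. No other line was set against the rest in this way, so these shares do not rank M2 among the lines. VIM, the mesenchymal filament protein vimentin, was at 2434, 2407 and 1464 TPM (the authors' level of a gene, scaled to transcript length and to the library) in M2 and between 12.5 and 3097 in the other 18 libraries. CDH1, the epithelial cadherin, was at 0.06, 0 and 0.10 TPM in M2 and at 0.05 to 118 TPM in the others, with M1 as low at a mean of 0.08 TPM. EPCAM, an epithelial adhesion molecule, was at 0.17, 0.13 and 0.08 TPM in M2, below all 18 others (0.56 to 452). Of 12 epithelial markers 11 fell and none rose, while of 12 mesenchymal markers 9 rose and 1 fell. M1 shared much of this: against M1 alone 4 epithelial markers were lower and 2 higher in M2, and 2 mesenchymal markers were lower and 2 higher. Other lists were mixed against the 6 lines. Of 8 fibroblast markers tested 1 rose and 7 fell, and of 8 kidney and mesothelium markers 0 rose and 7 fell. Of 8 smooth muscle and pericyte markers 4 rose and 1 fell. The keratin KRT8 was still at 568, 412 and 596 TPM. Library totals, in units of 1e6 counts, ran from 24.6 to 48.1 (37.8, 25 and 47.7 for M2). M2 replicates 1 and 2 had longer mean effective lengths (2108 and 2083 bases) than replicate 3 (1956 bases), a split that ran through most of the lines and that the labels do not name. Whether the 3 libraries of a line were grown apart is not stated, and the p-values then cover the spread among these libraries only, which may be technical. The tables hold no genotypes, and the descent of M2 from the parental line was not tested.

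The set itself spans 2 kinds of promoter, and 4 stretches show the range. Each is 200 bases of RefSeq sequence (GRCh38.p14) from 250 to 51 bases before the gene's listed start, written 5′ to 3′ on the gene's strand, with every CG dinucleotide, the site of DNA methylation, in capitals. PARP11 (chr12:3873450-3873649, minus strand) and NUDT11 (chrX:51496643-51496842, minus strand) stand for the CpG-rich kind. CD33 (chr19:51224830-51225029, plus strand) and UGT2B7 (chr4:69096224-69096423, plus strand) stand for the CpG-poor kind.
PARP11: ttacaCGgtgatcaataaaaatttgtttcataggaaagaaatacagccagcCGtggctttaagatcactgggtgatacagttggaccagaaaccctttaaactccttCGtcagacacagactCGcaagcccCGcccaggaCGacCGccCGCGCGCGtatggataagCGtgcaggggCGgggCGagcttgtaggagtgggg
NUDT11: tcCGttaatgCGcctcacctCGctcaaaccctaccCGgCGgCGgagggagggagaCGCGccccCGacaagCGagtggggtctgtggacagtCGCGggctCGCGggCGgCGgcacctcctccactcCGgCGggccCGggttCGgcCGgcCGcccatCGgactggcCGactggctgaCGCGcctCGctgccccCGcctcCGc
CD33: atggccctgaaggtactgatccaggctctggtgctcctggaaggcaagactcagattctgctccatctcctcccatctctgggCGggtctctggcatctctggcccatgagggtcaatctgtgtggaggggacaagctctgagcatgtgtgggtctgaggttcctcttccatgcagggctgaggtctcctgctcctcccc
UGT2B7: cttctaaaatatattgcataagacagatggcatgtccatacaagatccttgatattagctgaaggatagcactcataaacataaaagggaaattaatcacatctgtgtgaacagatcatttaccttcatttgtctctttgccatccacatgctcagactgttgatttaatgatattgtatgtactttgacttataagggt
The PARP11 stretch holds 14 CG and the NUDT11 stretch 29, against 1 in the CD33 stretch and 0 in the UGT2B7 stretch. The UGT2B7 stretch lies inside the span that GENCODE 29 gives for the gene, so at least 1 annotated start lies upstream of it, and the start used in M2 was not measured for any gene.

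A promoter sequence was matched for 25 of the 37 genes. Counting over 250 bases before the start, 13 of them were CpG-rich (a CG content of at least 0.6 of that expected from base composition and a GC content of at least 50%), with 16 to 39 CG each. They were CUX2, NUDT11, CBARP, CFAP46, LDLRAD4, CRACR2A, KCNH5, NETO1, EGFLAM, ELAVL2, PARP11, DDX43 and MOCS1. The other 12 held 0 to 8 CG: GPR173, ANKFN1, SEMA3E, CAVIN2, CDH18, F2RL2, XKR3, CD33, SLC14A1, SLCO1A2, CYTIP and UGT2B7. Over all protein-coding genes 61.6% of 15323 promoters were CpG-rich. That share was 82.9% of the 8449 promoters of genes with at least 30 counts in all 21 libraries, and 18% of the 2512 promoters of genes with at most 3 counts in every line. The 13 of 25 found here (52.0%) cannot be set against those shares, because only 67.6% of the genes had a sequence, under the 80% that such a comparison needs. CSAG2, FCAR, TMEM204, NFE4, NUDT12, ABCA8, KCNE4, ACOT1, XKR6, RUNX1T1 and GLDN were among those with no entry.

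Across the set the separation was wide by construction. Of the 666 values of these genes in the other 18 libraries, 518 (77.8%) were 0 and the highest was 3 counts, while the lowest count in an M2 library was 40 and the highest 2646. A gene's counts over the 18 other libraries together came to between 1 and 12, with a median of 4. Summed over all 37 genes, the counts were 11862, 9481 and 10127 in the M2 libraries, against 34 over the 3 libraries of E, 36 of EM1, 28 of EM2, 33 of EM3, 29 of M1 and 17 of Parental. M1, the other clone named M, thus had as few as the rest. All 37 genes passed the low-count filter, and all were called higher in M2, a direction the choice of genes fixes. In TPM every M2 library lay above all 18 others for 9.13% of the genes tested.

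**Figure D1:**
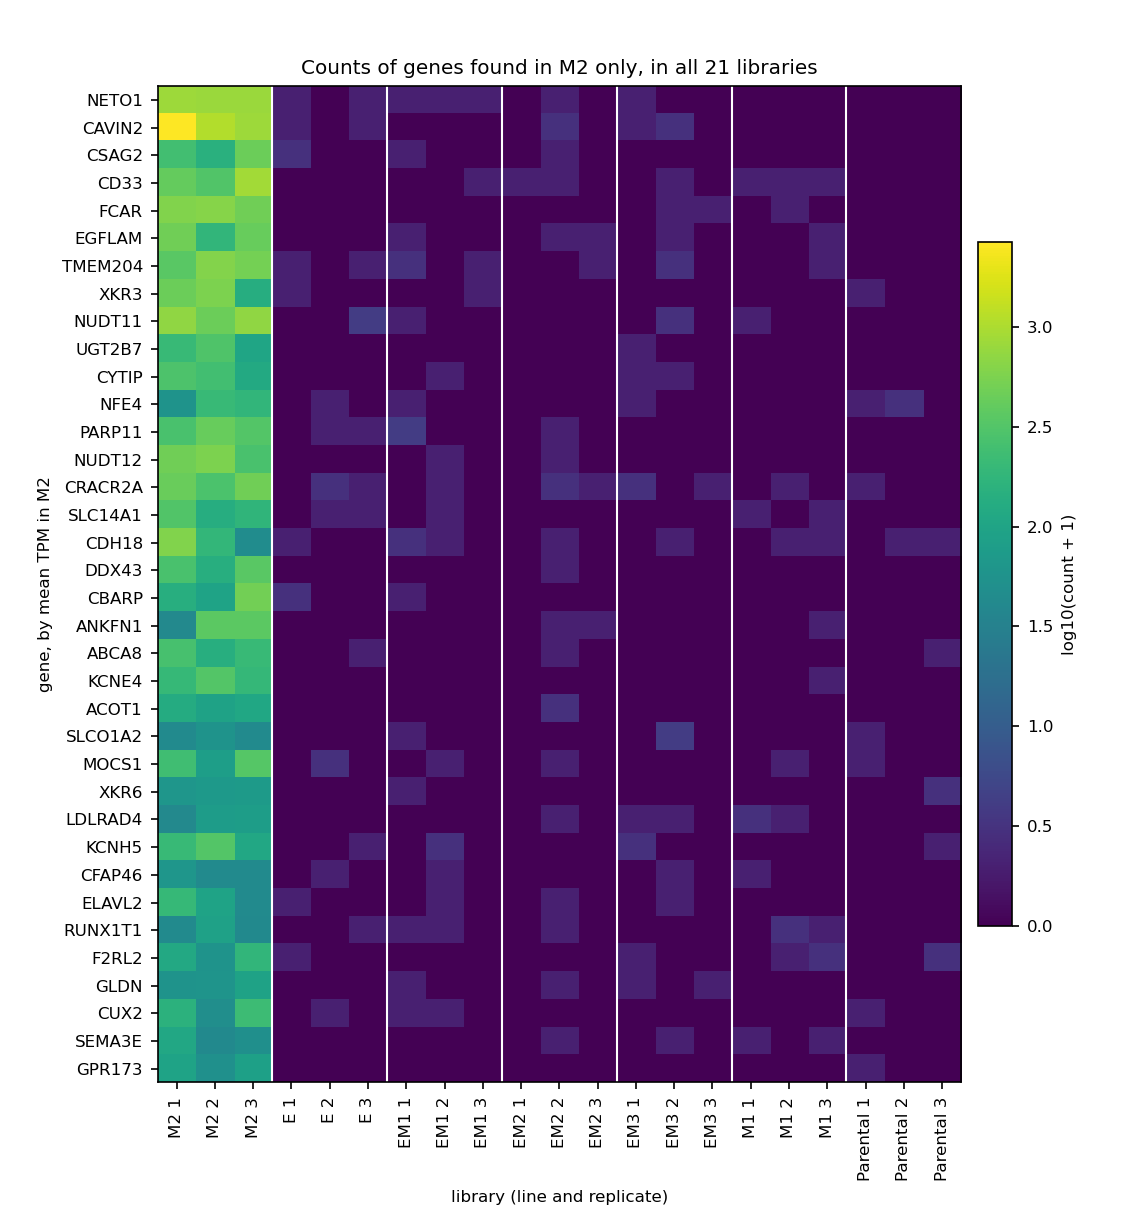
Counts of 36 of the 37 genes (rows, by falling mean TPM in M2) in the 21 libraries (columns, 3 per line), coloured by log10 of the count plus 1. The 3 M2 columns hold 40 to 2646 counts per gene, and no other column exceeds 3.

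No other line had as many such genes. The limits ask for near absence from every other line, so a line that resembles another here can hold few. How alike the lines are was not tested, so the numbers do not rank them. The same limits, with the same symbols left out, gave 2 genes for E, 1 for EM2, 4 for M1 and 0 for each of EM1, EM3 and Parental. In M1 these were CCL2, a chemokine (446, 603 and 398 counts), ARMCX1, ANGPTL2 and FPR2, and in E they were CNTFR and KIT. SOD3, an extracellular superoxide dismutase, was the gene of EM2, with 116, 107 and 113 counts. Genes of other types than protein-coding were split in a like way: 41 met the limits in M2, 1 each in E and M1, and 0 in the other 4 lines. Among the 41 was PICSAR, a long non-coding RNA, with 657, 588 and 1062 counts in M2, and 3 of the 41 lay within 500 kb of one of the 37 genes.

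These were weakly to moderately read genes. Their mean TPM in M2 ran from 0.567 (GPR173) to 16.9 (NETO1) with a median of 2.81. The median was 18.3 over the 11115 protein-coding genes with at least 30 counts in each M2 library, and 0 of the 37 reached it. Mean levels were at least 5 TPM for 14 genes, from 1 to under 5 TPM for 18 and under 1 TPM for 5.

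The M2 libraries were uneven for many of these genes. The highest M2 TPM was 2.4 times the lowest at the median, against 1.86 times over 5172 other genes in the same TPM range. The ratio exceeded 3 for 15 of the 37 (40.5%) and for 19.1% of the others. Replicate 2 was the highest library for 20 genes, replicate 1 for 11 and replicate 3 for 6, and replicate 3 was the lowest for 22. Among the other genes replicate 3 was also most often the lowest, at 49.1%. Depth and mean effective length differ between the same 3 libraries, and their part in this spread was not tested.

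**Figure D2:**
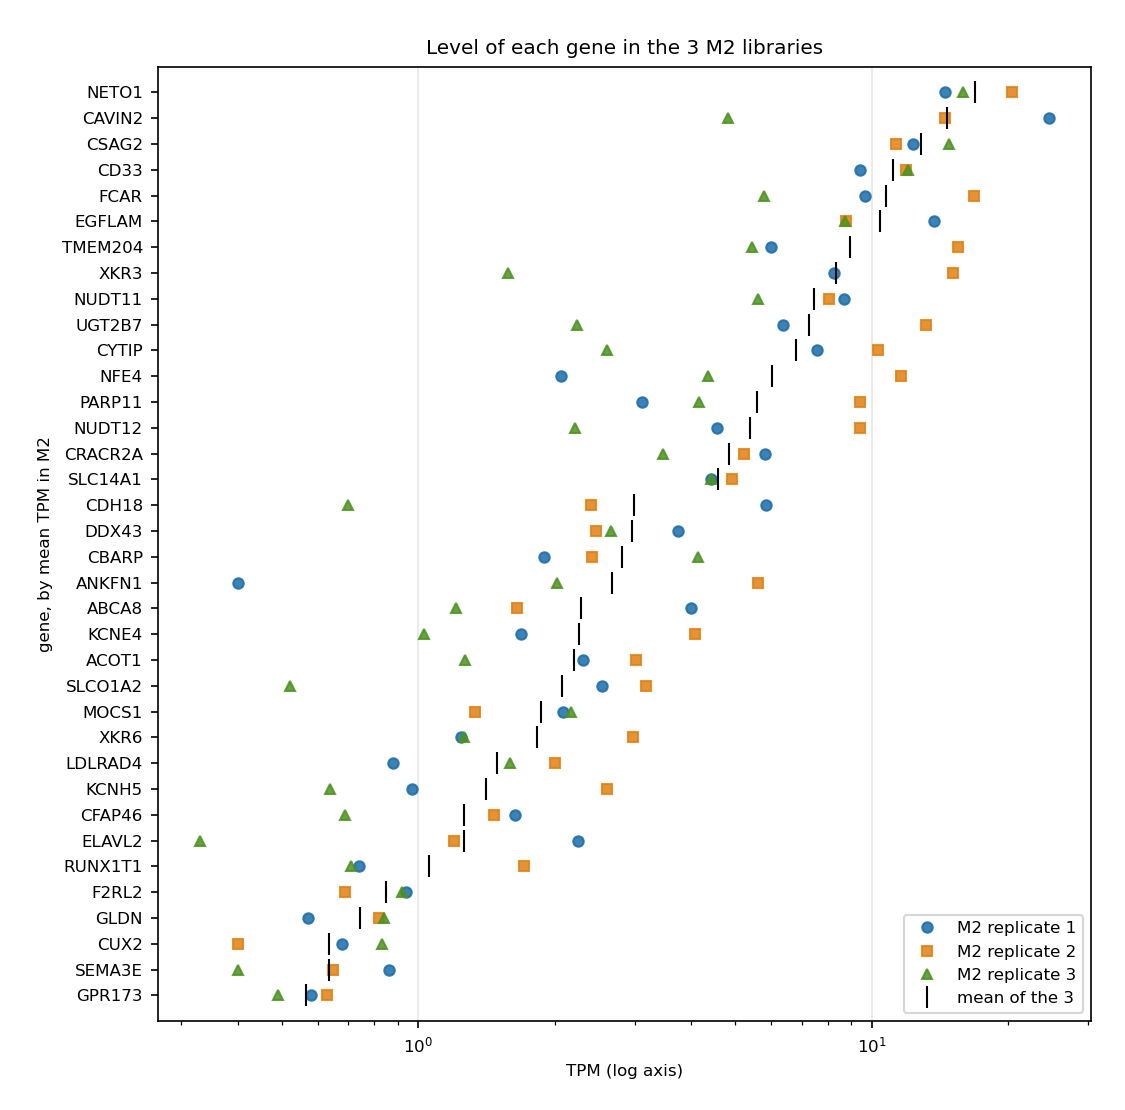
TPM of 36 of the 37 genes (log axis) in M2 replicates 1, 2 and 3 (circle, square and triangle), with a bar at the mean. The means fall from 16.9 for NETO1 to 0.567 for GPR173, and for ANKFN1 the libraries spread over 14-fold.

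The genes are described by the role they are known for, and the groups were made with the gene names in view. A first group is known from cells of the blood, although the fixed list of blood and immune markers holds 0 genes of the set. CD33, a sialic acid-binding receptor of myeloid cells, was at 9.41, 11.9 and 12.03 TPM in M2 replicates 1 to 3 (410, 313 and 894 counts), and had 7 counts in the 18 other libraries together, none of them in E or Parental. Its level was among the most even of the set (11.1 ± 1.48 TPM, SD, n = 3). FCAR, the Fc receptor for immunoglobulin A on the same cells, was at 9.64, 16.8 and 5.77 TPM (597, 635 and 477 counts) with 3 counts elsewhere.

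CYTIP, a lymphocyte protein that binds cytohesin, was at 7.55, 10.3 and 2.60 TPM and had 3 counts elsewhere. CRACR2A, a calcium sensor that regulates the store-operated calcium channel in T cells, was at 5.82, 5.22 and 3.47 TPM. It had 12 counts outside M2, the most of the 37, spread over 9 libraries and all 6 lines. NFE4, a regulator of fetal globin genes, was at 2.06, 11.6 and 4.36 TPM (57, 201 and 176 counts), high in replicate 2 and low in replicate 1. SLC14A1, the urea transporter that carries the Kidd blood group, was the most even gene of the set in TPM at 4.42, 4.91 and 4.41. Its counts were less even at 306, 133 and 173, in libraries that differ in depth and effective length.

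Markers of blood cells were read beside these genes. Of 16 markers 5 could be tested. Of these 2 (40%) rose (LCP1, by 2.57 on the log2 scale, and LAPTM5, by 6.2) and 1 (20%) fell (CORO1A, log2 fold -3.19). Of all genes tested 26.6% rose and 27.2% fell. These 2 risers were named after their values were seen, and without M2 replicate 1 or replicate 3 there were 2 falls. In M2 11 of the 16 were under 0.5 TPM, 3 of them at 0 in all 3 libraries, and PTPRC, the leukocyte antigen CD45, was at 0.17, 0 and 0.02 TPM. Their summed level was 26.8 to 68.3 TPM in M2 and 6.31 to 42.6 TPM in the other libraries. In bulk RNA a few cells with much of a transcript and many cells with little of it cannot be told apart, and the part of other cells in these values was not tested.

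Other genes are known from neurons, synapses and their adhesion, a grouping made with their names in view: the fixed list of neuronal markers holds 0 of the 37, and that of axon guidance and neural adhesion holds 1 (SEMA3E). NETO1, an auxiliary subunit of kainate and NMDA receptors, had the highest mean level of the set at 14.5, 20.4 and 15.9 TPM (835, 797 and 803 counts), with 7 counts elsewhere and none in M1 or Parental. EGFLAM, a matrix protein of the photoreceptor synapse, was at 13.7, 8.79 and 8.73 TPM with 5 counts elsewhere. CDH18, a type II cadherin of the nervous system, was uneven at 5.85, 2.4 and 0.70 TPM (598, 181 and 45 counts). CBARP, which binds the beta subunit of voltage-gated calcium channels, went the other way at 1.89, 2.41 and 4.13 TPM.

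Potassium channels were represented by KCNE4, an inhibitory accessory subunit, at 1.68, 4.08 and 1.03 TPM (197, 325 and 191 counts) and by KCNH5, a voltage-gated pore subunit, at 0.97, 2.61 and 0.64 TPM (204, 320 and 113 counts). Both were highest in replicate 2. KCNE4 had a single count outside M2, in M1. Over all channel genes listed, 94 could be tested, of which 25 rose (26.6%) and 42 fell (44.7%), against 26.6% and 27.2% of all genes. Without the low-count filter 41 rose and 41 fell, of 208, while of all 39529 genes then tested 6037 rose and 5029 fell. With a filter at a mean CPM of at least 1, 17 rose and 26 fell, of 53. Of all 13926 genes tested with that filter 4014 rose and 3947 fell. The balance of rises and falls thus changed with the filter. Among those that rose with every M2 library above all 18 others, GABRG1, a GABA receptor subunit, was at 0.72, 9.91 and 1.3 TPM against at most 0.02, and KCNMA1, the large-conductance potassium channel, at 41.6, 73.3 and 73.4 TPM against at most 28.96. CACNA2D1, an accessory subunit of calcium channels, was among those that fell (log2 fold -9.56).

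SEMA3E, a secreted guidance ligand of plexin D1, was at 0.86, 0.65 and 0.40 TPM (111, 41 and 50 counts) with 4 counts elsewhere. Among 79 tested genes of axon guidance and neural adhesion 21 rose (26.6%) and 36 fell (45.6%), beside 26.6% and 27.2% of all genes. EPHA3, an ephrin receptor, was at 2.14, 9.55 and 1.25 TPM in M2 and at most 0.08 elsewhere, while SLIT3, a secreted repellent, was at 0, 0.01 and 0 TPM against 0.22 to 10.03. ELAVL2, a neuronal RNA-binding protein, and GLDN, which gathers sodium channels at the nodes of myelinated axons, were lower still among the 37, with means of 1.26 and 0.743 TPM. Of 18 neuronal markers 10 were tested, and 3 rose (SYT1, MAP2, NCAM1) while 5 fell. MAP2, a microtubule protein of dendrites, was at 13.6, 26.3 and 24.9 TPM against 0.07 to 2.02, and L1CAM, a neural adhesion molecule, at 0.17, 0.10 and 0.49 TPM against 95.4 to 259. The summed level of the list was 52.7 to 137 TPM in M2 and 182 to 448 TPM elsewhere.

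The transcriptional regulators CUX2 and RUNX1T1 were low. CUX2, a factor of upper cortical neurons, had a mean of 0.637 TPM and RUNX1T1, a corepressor, of 1.05 TPM. Among 80 tested developmental transcription factors 24 rose and 33 fell (30% and 41.2%, beside 26.6% and 27.2% of all genes). Without the low-count filter 29 rose and 32 fell, of 129. IRX2, an Iroquois homeobox factor, was at 890, 1808 and 604 TPM in M2 against 5.72 to 16.0 in the other 18 libraries (log2 fold 6.68, edgeR adjusted p = 1.55e-15). TBX20, a T-box factor of the heart, was at 0 in all 3 M2 libraries and at 2.46 to 4.94 TPM elsewhere.

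CAVIN2 and TMEM204 are known from caveolae and endothelium, although the fixed list of endothelial markers holds 0 genes of the set. CAVIN2, a coat protein of caveolae, held the highest single count of the set: 2646, 1061 and 822 counts in replicates 1 to 3, or 24.6, 14.5 and 4.82 TPM. It had 7 counts elsewhere and none in EM1, M1 or Parental. TMEM204, a claudin-like protein of endothelial junctions, was at 5.98, 15.5 and 5.44 TPM with 9 counts elsewhere. Of 12 endothelial markers 7 were tested, of which 2 rose and 3 fell, beside 26.6% and 27.2% of all genes. ERG, an endothelial transcription factor, rose (10.8, 4.73 and 6.05 TPM against at most 0.07), and so did KDR, a VEGF receptor (log2 fold 5.67), while VWF, CDH5 and ROBO4 fell. Leaving out any M2 library reduced the 3 falls to 1, as did a filter at a mean CPM of at least 1. That filter also reduced the 2 rises to 1. The list summed to 6.19 to 11.6 TPM in M2 and to 2.05 to 5 TPM elsewhere. In M2 11 of the 12 were under 0.5 TPM, 4 of them at 0, and ERG was the exception. The part of the list in the levels of CAVIN2 and TMEM204 was not tested.

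A further group, also made by name, acts in metabolism and transport. Of the set, 0 genes are in the fixed list of liver and gut markers. UGT2B7, a glucuronosyltransferase of the liver, was at 6.37, 13.1 and 2.24 TPM (199, 302 and 103 counts) and had 1 count outside M2, in EM3. NUDT11, a phosphatase of diphosphoinositol polyphosphates, was at 8.70, 8.04 and 5.60 TPM with 7 counts elsewhere. NUDT12, a peroxisomal hydrolase of NADH, was at 4.55, 9.40 and 2.22 TPM with 2 counts elsewhere. The transporters ABCA8 and SLCO1A2, the acyl-CoA thioesterase ACOT1 and MOCS1, an enzyme of molybdenum cofactor synthesis, lay between 1.86 and 2.28 TPM on average. Of 12 liver and gut markers 3 were tested, 2 of which fell (HNF4A and CDX2), beside 27.2% of all genes. In M2 3 of the 12 were at 0, and the list summed to 3.95 to 4.75 TPM against 0.92 to 19.9 TPM elsewhere.

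Among antigens of the testis and tumours, CSAG2 on the X chromosome was at 12.3, 11.3 and 14.8 TPM (239, 147 and 453 counts) with 4 counts elsewhere, and DDX43, an RNA helicase, at 3.73, 2.47 and 2.66 TPM with a single count elsewhere. Both were grouped by name, and the fixed list of germ line and pluripotency markers holds 0 genes of the set. Of its 12 markers 3 were tested, of which POU5F1 rose (log2 fold 5.31) and SALL4 and TFAP2C fell. Of all genes tested 26.6% rose and 27.2% fell. The list summed to 3.96 to 5.83 TPM in M2, below the 14.4 to 54.8 TPM of the other libraries.

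Genes of signalling and some of other roles come last. PARP11, a mono-ADP-ribosyltransferase, was at 3.12, 9.43 and 4.15 TPM (276, 428 and 322 counts), and its 6 counts elsewhere came from E, EM1 and EM2. XKR3, of the XK-related membrane proteins, was at 8.25, 15.1 and 1.58 TPM (447, 557 and 135 counts), a spread of 9.56-fold. Its relative XKR6 averaged 1.83 TPM. LDLRAD4, an inhibitor of TGF-beta signalling, averaged 1.49 TPM, and F2RL2, a protease-activated receptor cleaved by thrombin, 0.85 TPM. GPR173, an orphan receptor, was at 0.58, 0.63 and 0.49 TPM (95, 51 and 87 counts) with 1 count elsewhere. Among 109 tested G protein-coupled receptors 24 rose (22.0%) and 33 fell (30.3%), near the 26.6% and 27.2% of all genes. ADGRF5, an adhesion receptor, was at 56.5, 56.6 and 38.3 TPM against at most 0.14, and PTGER2, a prostaglandin receptor, at 0 against 4.20 to 13.9. CFAP46, a protein of the ciliary axoneme, averaged 1.26 TPM. ANKFN1, with ankyrin and fibronectin repeats, was the most uneven gene at 0.40, 5.60 and 2.02 TPM (40, 362 and 368 counts).

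The 37 genes lay on 17 chromosomes, with at most 4 on any (chromosomes 5 and 12). A single pair lay within 500 kb of each other: CRACR2A and PARP11, both on the minus strand of chromosome 12 and 26228 bases apart. Their levels did not move together across the M2 libraries, with PARP11 highest in replicate 2 and CRACR2A in replicate 1. Within 1 Mb of PARP11 13 other protein-coding genes were tested, of which 6 rose, 1 fell and 6 were not called. Of all genes tested 26.6% rose and 27.2% fell. Genes left out by symbol are not among the 13. They include CCND2, which lies 400324 bases from PARP11 and met the count limits of the set. A gene without a symbol that begins beside it, 400314 bases from PARP11, is among the 6 that rose. That gene was at 1.06, 1.57 and 1.27 TPM in M2 against at most 0.42, and reads shared with CCND2 were not tested. TIGAR, a regulator of glycolysis, was at 26.2, 18.8 and 26.8 TPM against 2.31 to 20.95 (log2 fold 1.29), and RHNO1 at 50.9, 56.8 and 53.2 TPM against 27.4 to 65.7 was not called.

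The gene next to CBARP had the smallest adjusted p of all neighbours. STK11, the tumour suppressor kinase LKB1, was at 21.4, 30.9 and 20.4 TPM in M2 and between 0.06 and 0.73 TPM in the other 18 libraries, Parental included (log2 fold 7.90, edgeR adjusted p = 9.69e-15). The gene bodies of STK11 and CBARP overlap, and without a stated strand setting their reads may not be told apart where they do. Around CBARP, within 200 kb, 15 genes were tested, and 4 rose, 3 fell and 8 were not called, beside 26.6% and 27.2% of all genes. ATP5F1D, 3719 bases from CBARP on the other side and a subunit of the mitochondrial ATP synthase, was at 93.98, 80.2 and 88.5 TPM against 46.4 to 97.6. MIDN, next after it, was at 14.7, 15.7 and 21.1 TPM against 10.02 to 32.8. Neither was called, and both overlapped the other lines in level. Both regions were chosen after the values were seen.

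**Figure D3:**
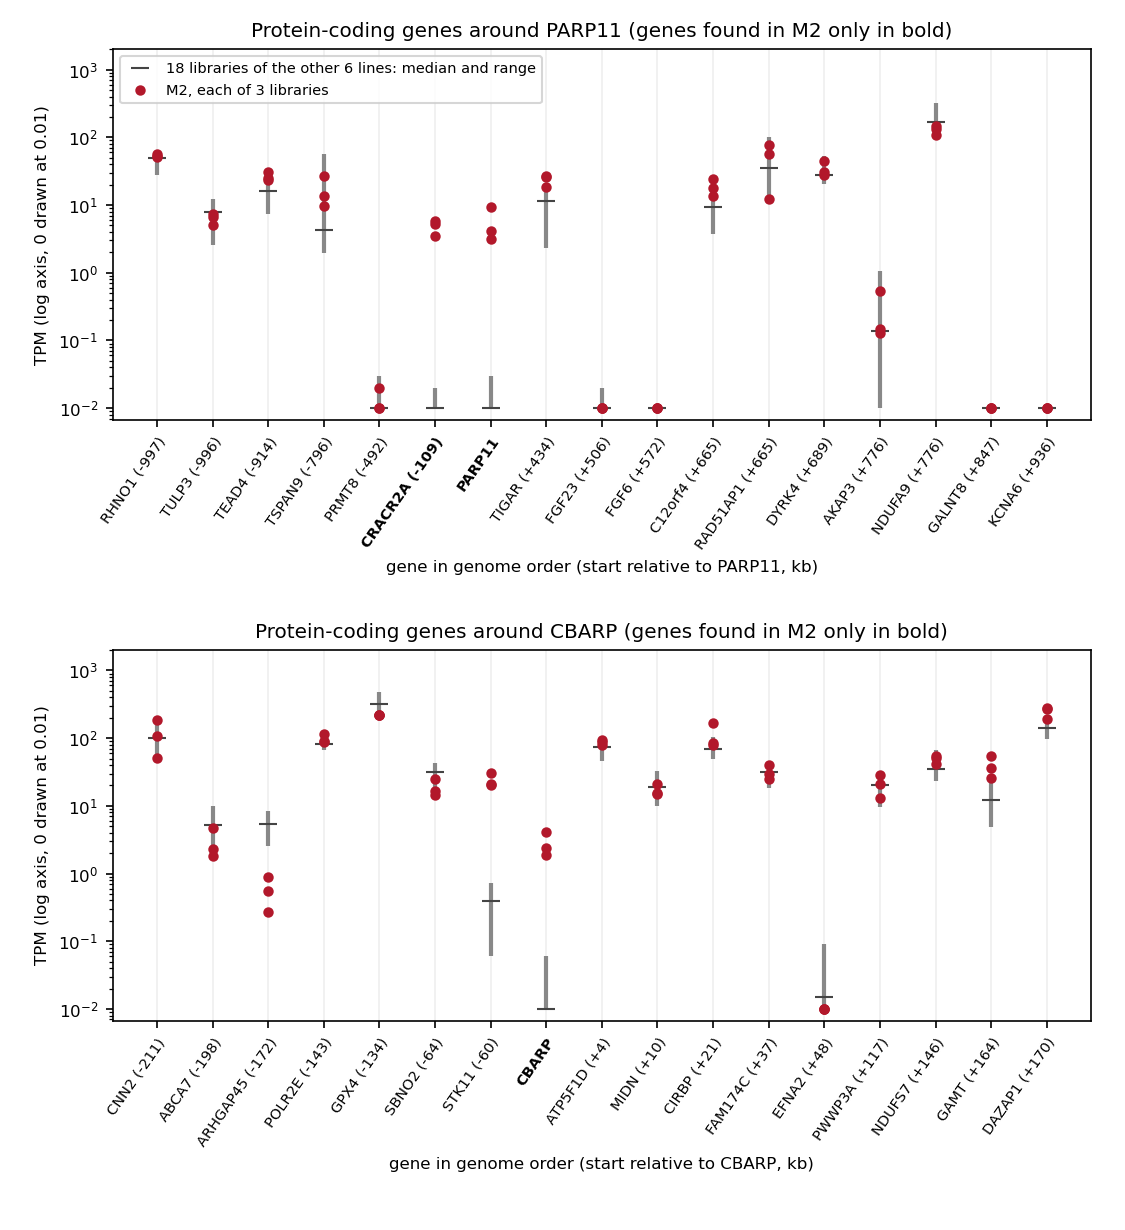
TPM (log axis, values of 0 drawn at 0.01) of protein-coding genes with a symbol around PARP11 and around CBARP, in genome order with the distance of their starts in kb. Genes left out by symbol, CCND2 among them, are not drawn. Red points are the 3 M2 libraries, grey bars the median and range of the other 18. STK11, at 20.4 to 30.9 TPM in M2 and at most 0.73 elsewhere, and the genes found in M2 only (bold) stand clear of the grey bars.

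The genes that lie next to the 37 were looked at in the same contrast. The nearest protein-coding gene on each side within 1 Mb that is not itself in the set gave 67 genes, of which 41 were tested. In M2 against the other 6 lines 21 rose (51.2%), 6 fell (14.6%) and 14 were not called, beside 26.6% and 27.2% of all genes tested. Every M2 library lay above all 18 others for 11 of the 41, beside 9.13% of all genes tested. Within 100 kb 19 of 31 rose (61.3%) and 2 fell. These counts include MAGEA3 and MAGEA2B next to CSAG2, left out by symbol. Both met the count limits of the set, which fixed their direction. Without them 19 of 39 rose (48.7%), 6 fell and 9 lay above all 18 others. The 19 and the 9 still include a gene without a symbol that begins beside CCND2, 400314 bases from PARP11. Whether its reads are separate from those of CCND2 was not tested. Against M1 alone, a comparison with the same M2 libraries, 15 of 41 rose and 8 fell, beside 19.0% and 22.2% of all genes. The neighbours were not matched to other genes in level or spacing, so these shares are a description. Gene bodies overlap at 9 of the pairs, which include STK11 with CBARP, FBXL13 with NFE4, OOEP with DDX43 and IQGAP2 with F2RL2. There, reads may be shared.

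FBXL13, an F-box protein gene that overlaps NFE4, was at 4.91, 51.1 and 17.7 TPM in M2 and at 0.10 to 0.95 TPM elsewhere (log2 fold 6.33, edgeR adjusted p = 1.62e-11). Its order of libraries was that of NFE4, lowest in replicate 1 and highest in replicate 2. F2R, the thrombin receptor 92609 bases from its relative F2RL2, was at 28.8, 32.8 and 11.4 TPM against 0.10 to 4.11 (log2 fold 5.50, edgeR adjusted p = 7.37e-11). NOG, the secreted BMP antagonist noggin, lies 82040 bases from ANKFN1 and was at 6.25, 7.34 and 7.64 TPM against 0 to 0.90. It was even across the M2 libraries where ANKFN1 was not.

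LIFR, the receptor of leukemia inhibitory factor next to EGFLAM, was at 13.9, 9.84 and 7.17 TPM against 0.48 to 5.24. Of the 6 neighbours that fell 2 lay within 100 kb, as did 31 of the 41 tested, and the part of distance was not tested. PCLO, a scaffold of the presynaptic zone 200308 bases from SEMA3E, was at 0.02, 0 and 0.04 TPM against 0.65 to 6.09 (log2 fold -8.43, edgeR adjusted p = 1.29e-09). SCG2, the secretory granule protein secretogranin II near KCNE4, was at 0.12, 0.16 and 0.04 TPM against 1.52 to 49.2. SEMA3A, a semaphorin on the other side of SEMA3E, was at 0.28, 0.87 and 0.40 TPM against 1.77 to 22.9.

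**Figure D4:**
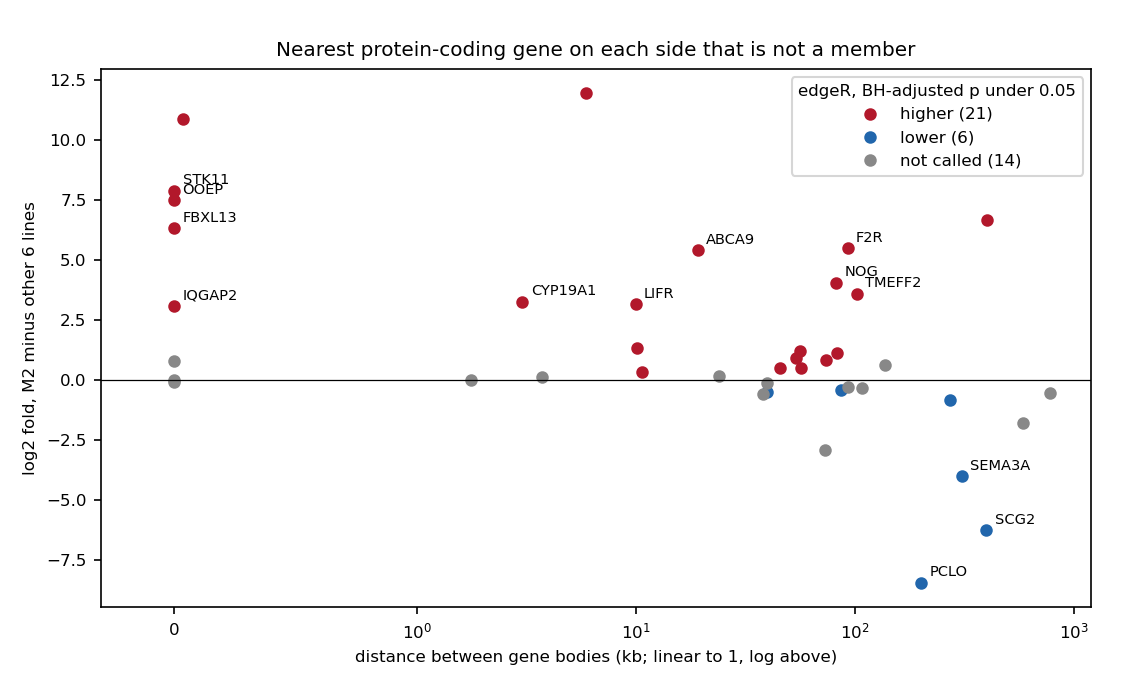
Log2 fold of M2 against the other 6 lines for the 41 tested neighbours of the 37 genes, by distance between gene bodies in kb (linear to 1 kb, log above). Red marks the 21 that rose, blue the 6 that fell and grey the 14 not called. Called genes beyond a log2 fold of 2.5 are named, other than unnamed genes and the genes left out by symbol. The 3 largest falls are PCLO, SCG2 and SEMA3A.

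For each gene the closest relative by protein sequence was compared. Of 36 of the genes with a translated coding sequence (NFE4 had none) 21 had a relative with at least 40% protein identity. Of these 21 relatives, 5 had a median of at least 1 TPM in the 18 other libraries: ACOT2, PMEPA1, NETO2, SEMA3A and CUX1. The rest were read there at low level or not at all. Of the 12 relatives that could be tested 6 rose (50%), 2 fell (16.7%) and 4 were not called, beside 26.6% and 27.2% of all genes tested.

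NETO2, which shares 57.8% of residues with NETO1 and serves the same kainate receptors, was at 91.2, 41.2 and 77.0 TPM in M2 and 26.7 to 73.0 TPM elsewhere, so the groups overlapped (log2 fold 0.73, edgeR adjusted p = 0.0115). Without M2 replicate 1 the edgeR adjusted p was 0.175 and the log2 fold 0.45, so that call rests on 1 library. CDH12, the cadherin closest to CDH18 at 60.4%, was at 9.09, 13.7 and 10.6 TPM against at most 0.08 (log2 fold 11.50, edgeR adjusted p = 4.41e-11). It missed the limits of the set by 1 count, with 4 counts in E, and was even across the M2 libraries where CDH18 was not.

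PMEPA1, at 67.2% to LDLRAD4 and like it an inhibitor of TGF-beta signalling, moved the opposite way: 51.7, 17.9 and 29.6 TPM in M2 against 128 to 552 TPM in the other 18 libraries (log2 fold -3.57, edgeR adjusted p = 9.49e-06). SEMA3A, at 48.4% to SEMA3E, fell as given above. ACOT2 (log2 fold 0.19, edgeR adjusted p = 0.317) and CUX1 (log2 fold 0.31, edgeR adjusted p = 0.0901) were read in all lines and were not called.

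**Figure D5:**
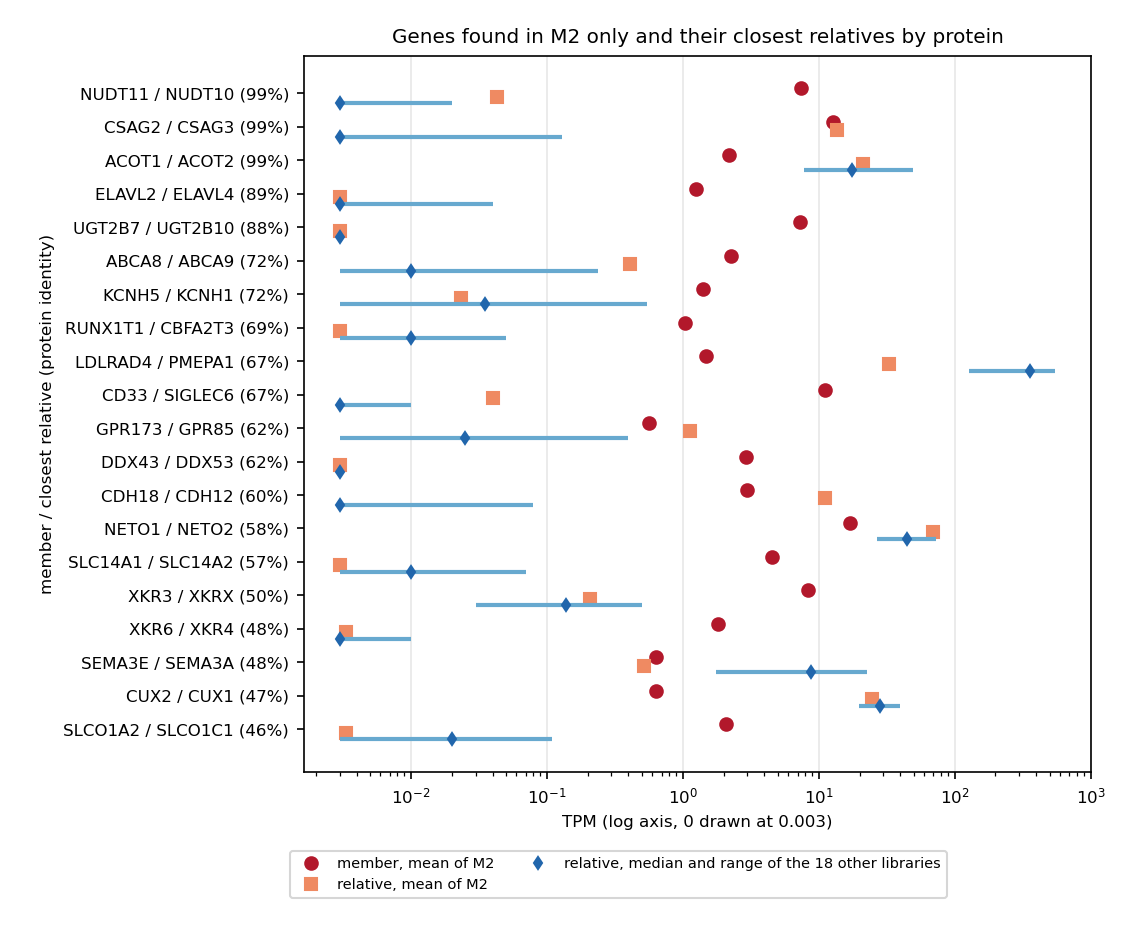
Mean TPM (log axis, 0 drawn at 0.003) of 20 of the genes in M2 (red circle), of each gene's closest relative in M2 (orange square), and the median and range of that relative in the other 18 libraries (blue). PMEPA1 is at 17.9 to 51.7 TPM in M2 and at 128 to 552 TPM elsewhere, while CSAG3 and CDH12 are read in M2 and hardly elsewhere.

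Near-identical copies make some of these values uncertain. CSAG2 and CSAG3 share 99.2% of residues, NUDT11 and NUDT10 99.4% and ACOT1 and ACOT2 98.8%, and the authors' counting divides reads that fit several genes. Counts of CSAG2, NUDT11 and ACOT1 were not whole in all 3 M2 libraries, those of FCAR and ABCA8 in 2 and that of CD33 in 1, which shows that reads had been divided. CSAG3 was at 11.8, 16.9 and 12 TPM in M2 and at most 0.13 elsewhere, so nearly all reads of the pair were in M2. NUDT10 was at 0.02, 0.02 and 0.09 TPM in M2, and ACOT2 was read in every line.

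At the edge of the limits, ANKFN1 and LDLRAD4 had the lowest M2 count inside, 40 each. Just outside on the M2 side was ARSL, with 38, 31 and 29 counts in M2 and 0 in all other libraries. Just outside on the other side were 13 genes with 4 or 5 counts in some other line. TNFRSF1B, a tumour necrosis factor receptor, had 547, 225 and 831 counts in M2, NOVA2, a neuronal splicing factor, 723, 364 and 2540, and CSMD1, a large complement-regulating membrane protein, 454, 668 and 1651. AQP9, KLF8, KLF15, CDH8, CNTNAP4, GABRG1, STK32A, MYOZ2, FBXL7 and CDH12 were the others.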

How the data were processed

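Poly(A) RNA of 21 libraries (7 SUM149PT lines, 3 each) was read from 1 end. The authors used, per the submitters' processing notes, bcl2fastq 2.20.0.422, cutadapt 2.4, STAR 2.7.2b and RSEM 1.3.2 with hg38. The annotation release and strand setting are not given in the sources used here. Per the file headers, the deposited values are expected counts (estimated reads per gene), TPM and effective lengths in bases. Between 7.4 and 8.6% of a library's expected counts were not whole, and they were rounded. Gene types and positions came from GENCODE 29, which held 58542 of the 60617 genes.

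All 21 libraries entered 1 fit with a mean per line in edgeR 4.0.16 (R 4.3.3; quasi-likelihood F-test, TMM, low-count filter, 14 residual degrees of freedom, common biological coefficient of variation 0.34), checked on simulated counts. A gene was called at a Benjamini-Hochberg adjusted p under 0.05. "Rose" and "fell" refer to M2 against the mean of the 6 other lines. Log2 folds come from counts, and levels are TPM. Relatives were found with BLAST 2.17.0 on coding sequences translated from GENCODE 29 (e-value 1e-05, at least 40% identity over 50% of the member). Library values are given for the 15 genes with the highest mean TPM, for genes of a fixed list and for the close pair; other genes of the set whose values are given were added after their values were seen. Genes outside the set are named from fixed lists, neighbours and relatives where called, separate from all 18 libraries and at a mean CPM of at least 1, and otherwise after their values were seen. The members and lists were chosen with earlier results of these data known. Tables were handled with Python 3.11.15, pandas 2.3.3 and numpy 2.4.6, and figures drawn with matplotlib 3.10.9. Alternatives were other count limits, filters, normalization and tests (DESeq2 1.42.0, limma 3.58.1), library set, length and replicate terms, and each library left out. Some results are withheld and not reported here.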

Additional observations from a re-analysis of the deposited data

How the results depend on the processing

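The set depends on its limits. It held 19 genes at a minimum of 100 counts per M2 library, 71 at a maximum of 10 counts over each other line and 0 at a maximum of 0 counts. Limits in TPM gave 32 genes, 19 of them shared with the 37. Leaving out each library in turn gave 37 to 42 genes. Calls over all genes ranged from 9217 to 10465 against the other 6 lines and from 6679 to 8206 against M1, calls among neighbours from 23 to 27, among relatives from 7 to 9 and among list genes from 328 to 366. Relatives called were 5 at 60% identity against 8 at 40%, with fewer relatives tested. The limma-trend test on TPM called 219 list genes against 357, with 316 tested against 528. The replicate numbers were not taken as pairs, since correlations of M2 libraries with same-numbered libraries ran from -0.2 to 0.44. With the replicate block 10732 genes were called against the other 6 lines, 8607 against M1, 27 neighbours, 8 relatives and 371 list genes. Of 1105 values of 37 named genes under alternatives 1099 kept direction and call, none reversed, and 6 changed call: NETO2 (above), KRT18 (log2 fold -0.67 without M2 replicate 1 and -0.54 without M2 replicate 2, no longer called), ACOT2 (0.31 with effective length as a covariate, called) and CUX1 (0.36 without M1 replicate 2 and 0.54 without M2 replicate 2, called). Removing neighbours left out by symbol was chosen after seeing the data. Depth limits the set: 3 counts in libraries of 24.6 to 48.1 (in units of 1e6 counts) do not show that a gene is silent.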
